A study of Homo sapiens with 6 samples.

Results

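The genes described here are the ligands and receptors of axon guidance: ephrins and Eph receptors, semaphorins with plexins and neuropilins, SLIT proteins with ROBO receptors, and netrins with UNC5 receptors. They were chosen by gene symbol, but with earlier results of these data known, so comparisons with all genes below only describe. Among the 12558 genes that the authors deposited, 48 carry such a symbol, 25 of them ligands and 23 receptors. These families hold 68 symbols in all; the other 20 were not analysed here (EPHA1, EPHA3, EPHA6, EPHA7, EPHA8, EPHA10, EFNB3, SEMA3E, SEMA4A, SEMA4G, SEMA5B, SEMA6D, PLXNA4, ROBO4, SLIT1, SLIT3, UNC5C, UNC5D, NTN3 and NTN5). The lowest average level of any gene in the table was 0.860 CPM (counts divided by the size of their library), so genes low in both groups are missing from it and a gene high in either group is more likely to be seen.

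The cells were IGR37, a human melanoma line, carrying a CTNNB1 transgene inserted by a piggyBac transposon and selected with G418. Its product, beta-catenin with the nuclear localisation signal of SV40 large T antigen, is made when doxycycline is present. As labelled, cells without doxycycline gave 3 libraries and cells kept for 24 h in 20 ng/ml doxycycline gave 3; both groups carry the transgene. The libraries were made from 500 ng RNA and read the 3' end of polyadenylated transcripts.

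Axon guidance molecules tell a moving cell or growth cone where to go. A ligand held on a neighbouring cell or secreted nearby binds a receptor that turns the actin cytoskeleton towards or away from it. Melanocytes descend from the neural crest, whose cells are steered by ephrins, semaphorins and SLIT proteins as they migrate, and several of these genes are also studied in melanoma invasion and vessel growth.

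Each gene has 1 deposited log2 fold change, an average level in CPM, an F statistic and an edgeR FDR, and no value per library. Spread between replicates therefore enters through the F test alone. The header names neither group nor the order of the comparison. That the groups of the table are the labelled ones is therefore an assumption, and it was not tested. Higher and lower here mean the positive and negative side of the authors' deposited table, and the groups at those ends are called the positive and the negative group. The level of each gene in each group was worked out from the deposited average and fold change, and is called its implied level. Over all rows these implied levels summed to 1011373 CPM in the positive and 1001540 CPM in the negative group. Plain CPM sum to the same total in every library by definition. Both sums lie above that total, so implied levels are approximate. The 95% intervals quoted are those that the deposited F statistic implies for the log2 fold change. A gene was called when the FDR was under 0.05.

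Facts of the whole table bear on every value below. The authors' deposited table put CTNNB1 3.89-fold higher (edgeR FDR 1.24e-08). Whether those reads came from the transgene or from the cells' own gene was not tested. MITF stood 18.6-fold and SOX10 78.0-fold higher in the authors' deposited table (edgeR FDR at most 2.22e-10). The melanocyte markers MLANA, PMEL, TYR, DCT, SOX10 and S100B were all called higher, 6 of 6, each from an implied 1.83 to 28.0 CPM in the negative group, with a summed implied level of 5912 CPM in the positive and 67.8 CPM in the negative group. Of 9 fibroblast markers 6 were measured; 4 were lower and 1 higher, at 15.4 CPM in the positive and 229 CPM in the negative group. Of 12 neuron markers 6 were measured, 3 lower and 2 higher; their summed implied level was 294 CPM in the positive and 448 CPM in the negative group, RBFOX3, STMN2, DCX, ELAVL3, ELAVL4 and GAP43 were not analysed here, and NEFL, called higher as deposited, was no longer called when values were centred on the spike-in RNAs. The endothelial markers PECAM1 and CDH5, 2 of 6 on that list, were both lower, at 1.49 and 10.1 CPM summed in the positive and the negative group. The blood list had 1 of 5 measured, CD68, which was higher as deposited but not called when centred on the spike-ins. NEFL, PECAM1 and CD68 were not called with 4 denominator degrees of freedom. The part that these markers or the cells behind them play in the results below was not tested. In RNA from a whole culture, fewer cells of a kind and less RNA per cell cannot be told apart. The median of the synthetic spike-in RNAs stood at 0.57 on the log2 scale of the authors' deposited table, against -0.01 for all genes, and centring on them lowers every value by that amount.

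Most of these guidance genes differed between the groups, and more were lower than higher. In that table of the authors, 36 of 48 (75%) had an edgeR FDR under 0.05, where 50.9% of all genes did. The called members split into 13 higher and 23 lower, beside 24.5% of all genes higher and 26.4% lower. Among them 32 changed by 2-fold or more (28.9% of all genes) and 18 by 16-fold or more (6.56% of all genes). The median size of the log2 fold change, without regard to sign, was 1.63 for the members and 0.58 for all genes. The members' median average level was 10.5 CPM, against 22.3 CPM for all genes, so these were genes of modest level. When values were centred on the spike-ins, 36 members were called (63.6% of all genes), 10 higher and 26 lower. With the 4 denominator degrees of freedom that 6 libraries in 2 groups leave, in place of the 14.03 of the deposited test, 31 members were called (33.0% of all genes). The deposited F was kept for this, so it is not the test that those 6 libraries alone would give. At an FDR under 0.01 there were 32 (38.1% of all genes), and 34 among genes with an average log2 CPM of at least 1 (51.3% of these genes). Over all genes, centring on the spike-ins moved the share of higher calls from 48.1% to 17.8%. Among the called members it moved that share from 36.1% to 27.8%. The members thus held a smaller share of higher calls than all genes as deposited, and a larger share when centred.

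Both directions occurred within 5 of the 9 families. Neuropilins, semaphorins, plexins, Eph receptors and ROBO receptors each held called members on both sides. The 5 called ephrins were all lower, and SLIT ligands, netrins and UNC5 receptors each had 1 called member, which was lower.

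**Figure D1:**
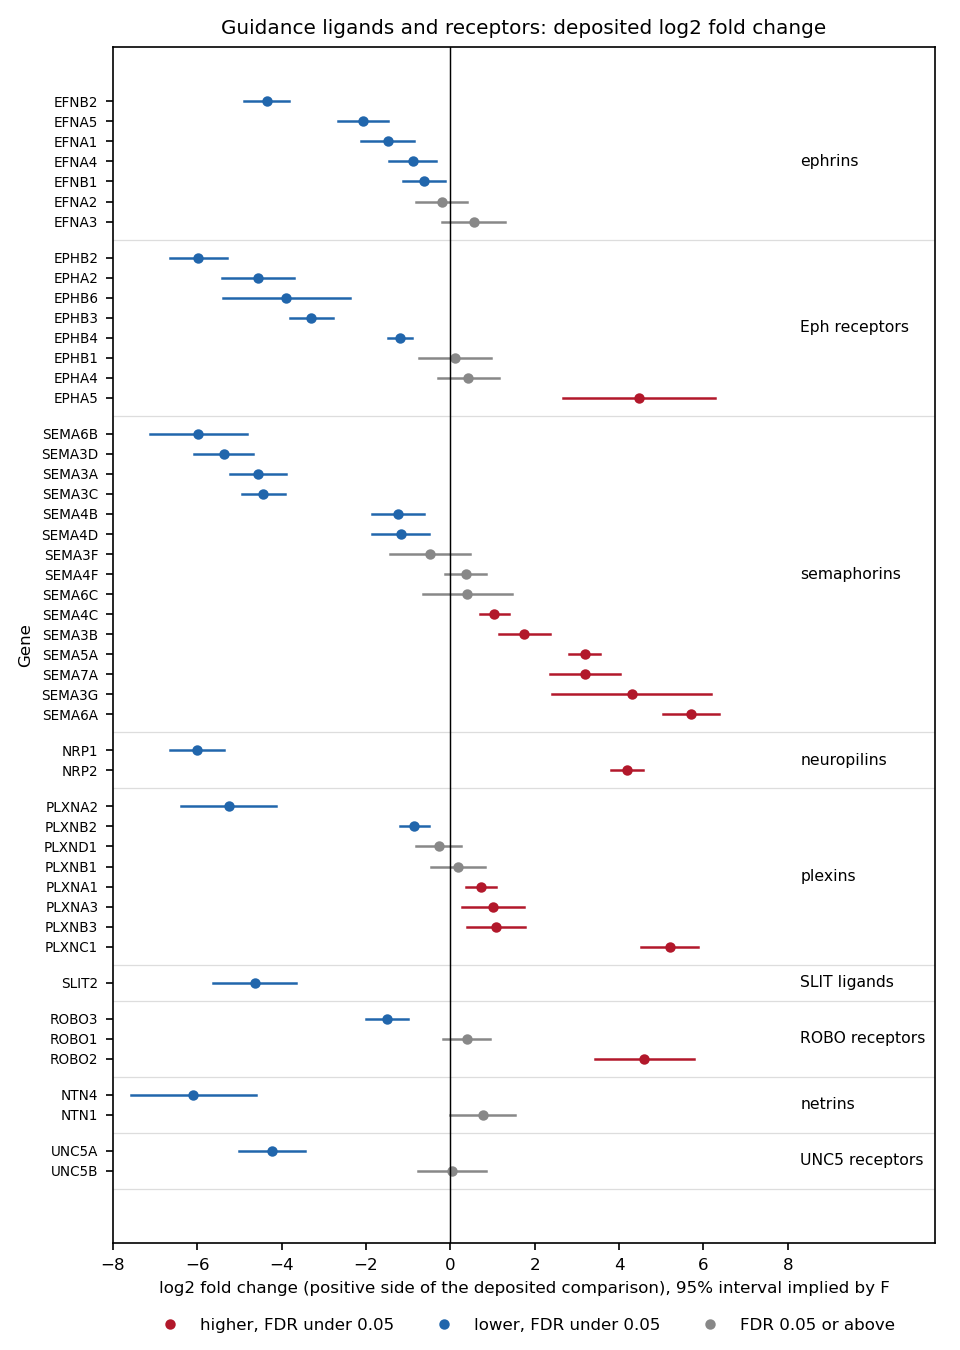
Deposited log2 fold change (horizontal axis) of each of the 48 guidance genes (vertical axis), grouped by family; lines are the 95% intervals implied by the deposited F statistic. The 5 called ephrins lie on the lower side, while NRP1 at -6.00 and NRP2 at 4.20 stand at opposite ends.

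**Figure D2:**
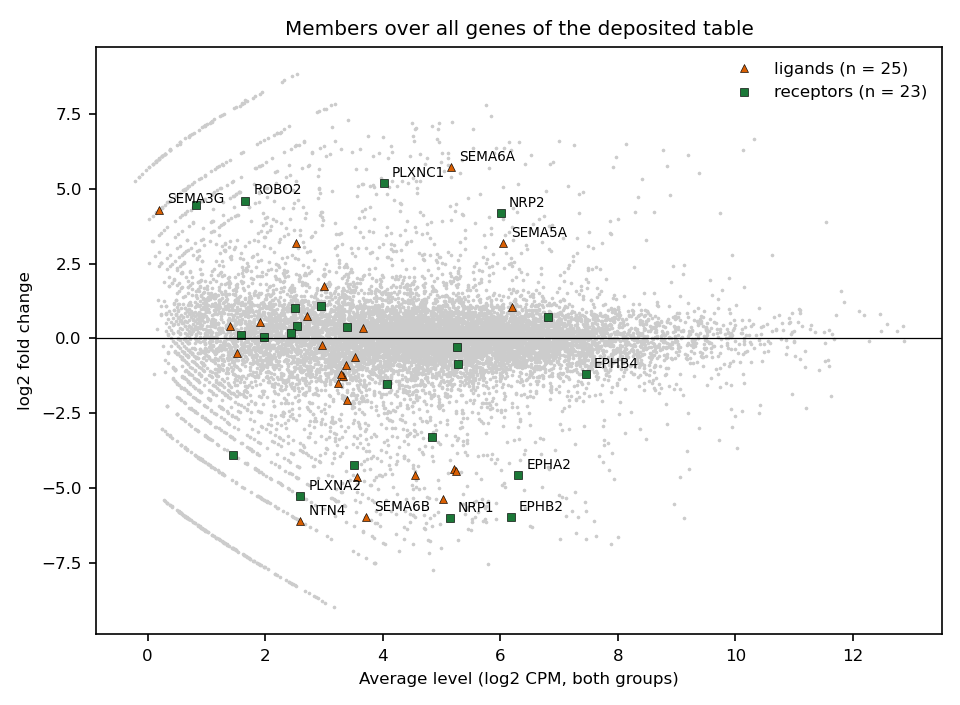
Log2 fold change (vertical axis) against average log2 CPM (horizontal axis) for all 12558 genes in grey, with 25 guidance ligands as triangles and 23 receptors as squares. EPHB2, NRP1 and EPHA2 at the lower edge and NRP2, SEMA5A and SEMA6A at the upper edge are members with large changes at higher average levels; the curved grey lines at the left are genes with very few reads in 1 group.

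The start regions of 4 members are printed here because these genes were among the most changed of those with a start region in the RefSeq table (GRCh38.p14), and because PLXNA2 and PLXNC1 belong to the same family and moved in opposite directions. Each runs from 250 bases before to 50 bases after the transcription start, 5' to 3' on the gene's own strand. EPHB2 is taken from chr1:22710589-22710888 on the plus strand, NTN4 from chr12:95791106-95791405 on the minus strand, PLXNA2 from chr1:208244335-208244634 on the minus strand and PLXNC1 from chr12:94148327-94148626 on the plus strand. Capitals mark the letters of the motifs described below; EPHB2 has none.
EPHB2: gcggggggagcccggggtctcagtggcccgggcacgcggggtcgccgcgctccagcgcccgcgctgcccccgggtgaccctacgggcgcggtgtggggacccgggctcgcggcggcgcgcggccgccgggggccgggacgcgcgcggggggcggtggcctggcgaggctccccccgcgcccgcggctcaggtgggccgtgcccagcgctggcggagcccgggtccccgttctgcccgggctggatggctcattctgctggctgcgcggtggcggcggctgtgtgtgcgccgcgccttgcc
NTN4: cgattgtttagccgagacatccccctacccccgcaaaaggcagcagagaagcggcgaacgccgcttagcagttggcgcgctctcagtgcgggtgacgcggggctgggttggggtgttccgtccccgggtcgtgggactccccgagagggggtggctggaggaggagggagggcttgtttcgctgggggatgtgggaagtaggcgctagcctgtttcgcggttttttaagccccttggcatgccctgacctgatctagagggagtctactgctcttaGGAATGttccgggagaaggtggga
PLXNA2: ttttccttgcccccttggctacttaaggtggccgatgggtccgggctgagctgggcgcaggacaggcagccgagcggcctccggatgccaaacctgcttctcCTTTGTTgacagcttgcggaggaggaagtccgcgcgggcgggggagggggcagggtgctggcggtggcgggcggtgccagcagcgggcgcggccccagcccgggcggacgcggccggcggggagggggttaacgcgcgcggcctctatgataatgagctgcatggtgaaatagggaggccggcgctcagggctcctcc
PLXNC1: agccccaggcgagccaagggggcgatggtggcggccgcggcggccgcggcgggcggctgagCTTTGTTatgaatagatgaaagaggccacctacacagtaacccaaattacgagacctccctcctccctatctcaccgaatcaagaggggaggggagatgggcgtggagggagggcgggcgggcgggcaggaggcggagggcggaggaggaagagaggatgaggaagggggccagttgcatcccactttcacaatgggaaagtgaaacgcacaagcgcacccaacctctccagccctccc

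These letters were searched on both strands in 42 members with a start region, and in 19095 genes for comparison. PLXNA2, which was lower, and PLXNC1, which was higher, both carry CTTTGTT, the reverse complement of the SOX motif AACAAAG, and these were 2 of 42 members with it, beside 4.60% of all start regions. The TEAD motif GGAATG, in capitals in NTN4, was in 4 of 42 members, 2 of the 12 called higher and 2 of the 20 called lower, beside 12.6% of all. The TCF/LEF motif, searched as CTTTGAT or CTTTGAA, was in 1 of 42, PLXNA1, beside 5.85% of all. CATGTG, a form of the E-box to which MITF can bind, was in 5 of 42, namely NRP2, SEMA3G, EPHB6, PLXNB2 and ROBO1, beside 9.46% of all. CACGTG was in 1 of 42, SEMA4D, beside 8.36%, and the AP-1 motif TGANTCA was in 0 of 42, beside 6.64% of all start regions. SOX and TCF/LEF letters overlap in their shared CTTTG. A match of letters is a description and not a binding site.

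Ephrins were lower or not called. Ephrin-A ligands are tied to the membrane by a lipid anchor and ephrin-B ligands span it; both can signal back into the cell that carries them. EFNB2, an ephrin-B best known from arteries, had an implied level of 3.47 CPM in the positive and 70.8 CPM in the negative group. The authors' deposited table put it 20.4-fold lower (log2 -4.35, interval -4.89 to -3.81, edgeR FDR 3.83e-09). The other measured ephrin-B, EFNB1 on the X chromosome, moved far less, from 14.1 CPM in the negative to 9.11 CPM in the positive group (log2 -0.63, interval -1.13 to -0.12, edgeR FDR 0.0386 in the authors' deposited table). It was the called member closest to the threshold.

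Among the 5 ephrin-A ligands 3 were lower. EFNA5 had implied levels of 4.07 CPM in the positive and 17.0 CPM in the negative group and was, in the authors' deposited table, 4.18-fold lower (interval of the log2 value -2.66 to -1.47, edgeR FDR 2.60e-05). EFNA1, the main partner of EPHA2, stood 2.80-fold lower in the authors' deposited table, at 5.0 and 14 CPM (edgeR FDR 0.000700). EFNA4 was 1.86-fold lower there, at 7.24 and 13.5 CPM (edgeR FDR 0.0101). These 2 genes and EFNA3 lie side by side on the plus strand of chromosome 1 (hg38), EFNA4 at 155063737 to 155069553, EFNA3 at 155078837 to 155087538 and EFNA1 at 155127876 to 155134899. EFNA3, between its 2 lower neighbours, had a log2 value of 0.55 with an interval of -0.19 to 1.30 in the authors' deposited table (edgeR FDR 0.202). An annotated read-through transcript joins EFNA4 and EFNA3, so reads of those genes may have been shared. EFNA2 had a log2 value of -0.21 (interval -0.81 to 0.40, edgeR FDR 0.573) in the authors' deposited table. EFNB1 and EFNA4 were not called with 4 denominator degrees of freedom, and EFNA2 was called lower when centred on the spike-ins.

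Eph receptors, the largest family of receptor tyrosine kinases, were measured in 8 members, of which 5 were lower and 1 higher. EPHB2, described as a beta-catenin target in the intestinal crypt, showed 2.26 CPM in the positive and 142 CPM in the negative group. That made it 62.8-fold lower in the authors' deposited table (log2 -5.97, interval -6.65 to -5.30, edgeR FDR 1.48e-09), the largest change of the family. EPHB3, which acts with EPHB2 in the crypt, was, in the authors' deposited table, 9.80-fold lower, at 5.29 and 51.9 CPM (interval of the log2 value -3.81 to -2.78, edgeR FDR 4.67e-08). EPHB6, which lacks kinase activity, stood 14.8-fold lower in the authors' deposited table with a wide interval of -5.39 to -2.39 (edgeR FDR 0.000335); its implied level was only 0.347 CPM in the positive group. EPHB4, the receptor of EFNB2 on veins, changed less, with 107 CPM in the positive and 244 CPM in the negative group. Its decrease was 2.29-fold in the authors' deposited table, with a narrow interval of -1.49 to -0.90 (edgeR FDR 5.22e-06). EPHB1 was near 3 CPM in both groups, 3.14 and 2.90 (log2 0.12, interval -0.74 to 0.98, edgeR FDR 0.828 in the authors' deposited table).

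The EPHA receptors went both ways. EPHA2, an ERK-responsive receptor, had 6.47 CPM in the positive and 152 CPM in the negative group and was, in the authors' deposited table, 23.5-fold lower (log2 -4.56, interval -5.42 to -3.69, edgeR FDR 3.57e-07). EPHA5, a mainly neuronal receptor, was the higher member, at 3.38 CPM in the positive and 0.152 CPM in the negative group. Its 22.2-fold increase in the authors' deposited table rests on a very low implied level in the negative group. The interval ran from 2.67 to 6.28 (edgeR FDR 0.000490). EPHA4 was not called (6.70 and 4.98 CPM, interval of the log2 value -0.29 to 1.14, edgeR FDR 0.305 in the authors' deposited table). EPHB2 lies on chromosome 1, plus strand, at 22710839 to 22921500 and EPHA2 on the minus strand of the same chromosome at 16124337 to 16156069.

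**Figure D3:**
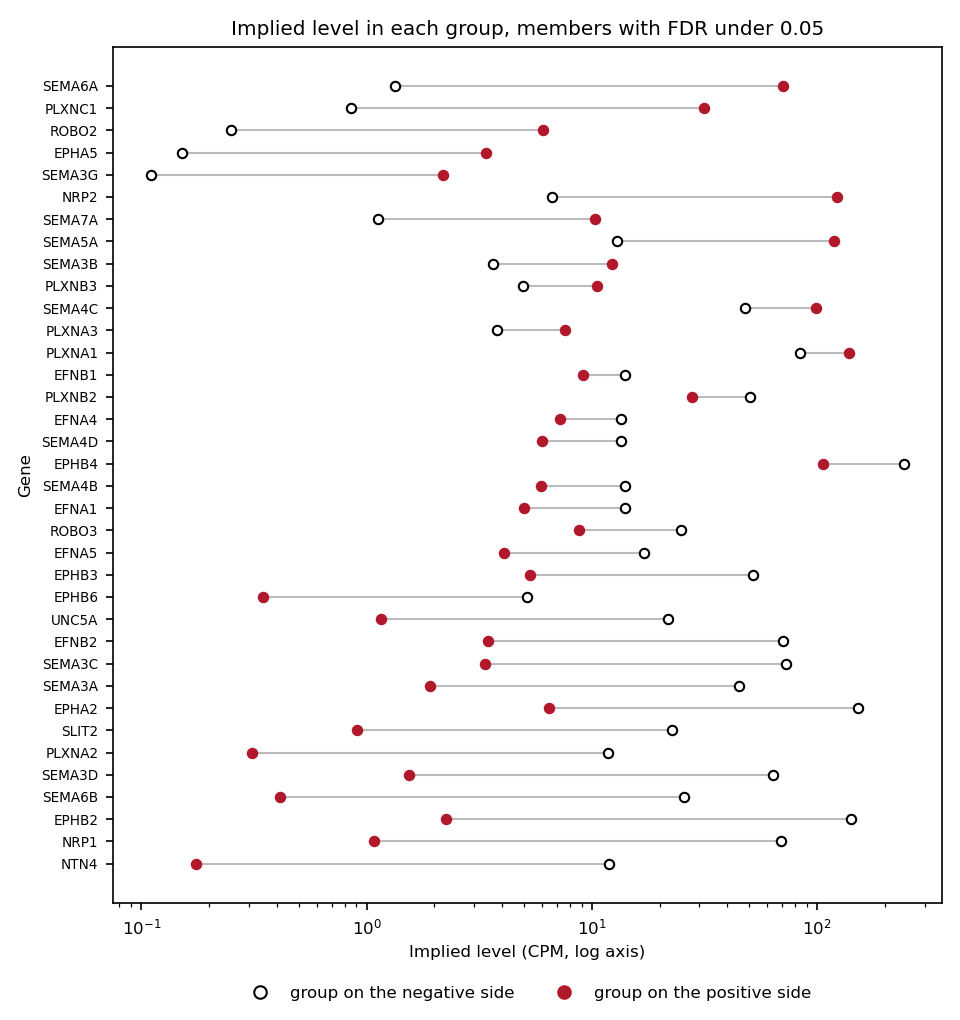
Implied level in CPM (horizontal log axis) of the 36 called members (vertical axis, ordered by fold change) in the positive group (filled) and the negative group (open). EPHB4 and PLXNA1 stay near or above 84 CPM in both groups, whereas 9 members fall under 1 CPM in 1 group.

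Neuropilins, co-receptors that bind secreted class 3 semaphorins and VEGF, moved in opposite directions. NRP1, the co-receptor of SEMA3A, had an implied level of 1.08 CPM in the positive and 69.4 CPM in the negative group. It stood 64.1-fold lower in the authors' deposited table (log2 -6.00, interval -6.63 to -5.37, edgeR FDR 7.61e-10). NRP2, the preferred co-receptor of SEMA3F, had 122 CPM in the positive and 6.64 CPM in the negative group and was, in the authors' deposited table, 18.4-fold higher (a log2 value of 4.20, interval 3.82 to 4.58, edgeR FDR 2.35e-10). Neither interval came near 0, and NRP2 had the smallest FDR of all 48 members. NRP1 lies on the minus strand of chromosome 10 at 33177492 to 33336262 and NRP2 on chromosome 2, plus strand, at 205681990 to 205798133.

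Secreted class 3 semaphorins were split as well, with 3 lower and 2 higher of 6 measured. SEMA3A, a repellent of axons and neural crest cells, had 1.92 CPM in the positive and 45.0 CPM in the negative group. It stood 23.4-fold lower in the authors' deposited table (interval of the log2 value -5.21 to -3.89, edgeR FDR 2.25e-08). SEMA3C was, in the authors' deposited table, 21.6-fold lower, at 3.37 and 72.8 CPM (interval -4.95 to -3.92, edgeR FDR 1.91e-09). SEMA3D was 41.5-fold lower there, at 1.54 and 63.8 CPM (interval -6.08 to -4.68, edgeR FDR 6.54e-09). All 3 lie on the minus strand of chromosome 7, SEMA3C at 80742538 to 80922359, SEMA3A at 83955777 to 84492724 and SEMA3D at 84995553 to 85187056. The 2 other genes of the table in that stretch were not called: CACNA2D1, a calcium channel subunit, had a log2 value of 0.22 (edgeR FDR 0.723) and PCLO, a presynaptic scaffold, 0.32 (edgeR FDR 0.623) in the authors' deposited table.

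SEMA3B and SEMA3G, both on chromosome 3, were the higher class 3 members. SEMA3B had 12.3 CPM in the positive and 3.64 CPM in the negative group, a 3.37-fold increase in the authors' deposited table (interval 1.15 to 2.36, edgeR FDR 0.000124). SEMA3G, known from endothelium, had only 2.17 and 0.110 CPM. Its 19.8-fold increase in the authors' deposited table carries a wide interval of 2.42 to 6.19 (edgeR FDR 0.000925). SEMA3F was not called (log2 -0.48, interval -1.42 to 0.46, edgeR FDR 0.384 in the authors' deposited table), although it was called lower when centred on the spike-ins.

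Membrane-bound semaphorins included the largest increase of all members. SEMA6A had an implied level of 70.4 CPM in the positive and 1.34 CPM in the negative group. The authors' deposited table put it 52.5-fold higher (a log2 value of 5.71, interval 5.05 to 6.37, edgeR FDR 1.97e-09). SEMA6B, of the same class, moved the other way from 25.8 CPM in the negative to 0.411 CPM in the positive group, 62.7-fold lower in the authors' deposited table (interval of the log2 value -7.12 to -4.82, edgeR FDR 4.26e-07). SEMA6C was not called (3.02 and 2.28 CPM, edgeR FDR 0.517 in the authors' deposited table). SEMA6A lies on the minus strand of chromosome 5 at 116443555 to 116574823 and SEMA6B on the minus strand of chromosome 19 at 4542593 to 4581776.

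SEMA5A, a transmembrane semaphorin with thrombospondin repeats, had 119 CPM in the positive and 13.0 CPM in the negative group and stood 9.13-fold higher in the authors' deposited table (interval 2.82 to 3.56, edgeR FDR 1.94e-09). SEMA7A, held on the membrane by a lipid anchor, was 9.19-fold higher there, at 10.3 and 1.12 CPM (interval 2.37 to 4.03, edgeR FDR 9.22e-06). Class 4 changes were smaller. SEMA4C was, in the authors' deposited table, 2.06-fold higher, at 98.5 and 47.7 CPM (edgeR FDR 9.13e-05). SEMA4B was 2.37-fold lower (5.94 and 14.1 CPM, edgeR FDR 0.00237) and SEMA4D, the ligand of PLXNB1, 2.26-fold lower (6.0 and 13.5 CPM, edgeR FDR 0.00666) in the authors' deposited table. SEMA4D was not called with 4 denominator degrees of freedom. SEMA4F was not called (14.3 and 11.1 CPM, edgeR FDR 0.209 in the authors' deposited table).

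Plexins, the receptors that pass semaphorin signals to the cytoskeleton, had 4 higher and 2 lower of 8 measured, but 1 higher and 3 lower when centred on the spike-ins. PLXNC1, the receptor of SEMA7A, had 31.4 CPM in the positive and 0.856 CPM in the negative group and stood 36.7-fold higher in the authors' deposited table (a log2 value of 5.20, interval 4.52 to 5.87, edgeR FDR 6.38e-09). PLXNA2, a receptor of class 6 semaphorins, had 0.309 CPM in the positive and 11.8 CPM in the negative group and was, in the authors' deposited table, 38.2-fold lower (log2 -5.26, interval -6.39 to -4.12, edgeR FDR 1.38e-06). The other 6 plexins lay between -0.85 and 1.08 on the log2 scale of the authors' deposited table.

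PLXNA1, a partner of neuropilins, stood 1.66-fold higher in the authors' deposited table, at 139 and 84.1 CPM (edgeR FDR 0.00181). PLXNB3, a receptor of SEMA5A, was 2.12-fold (10.5 and 4.96 CPM, edgeR FDR 0.0122) and PLXNA3 2.01-fold higher (7.59 and 3.78 CPM, edgeR FDR 0.0236) in the authors' deposited table. These 3 calls were lost when centred on the spike-ins, and those of PLXNB3 and PLXNA3 also with 4 denominator degrees of freedom. PLXNB2, a receptor of SEMA4C, was, in the authors' deposited table, 1.81-fold lower, at 27.8 and 50.3 CPM (edgeR FDR 0.000408). PLXNB1 had a log2 value of 0.18 (edgeR FDR 0.640) and PLXND1, the receptor of SEMA3E, -0.28 (edgeR FDR 0.370) in the authors' deposited table. PLXND1 was called lower when centred on the spike-ins.

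SLIT, ROBO, netrin and UNC5 genes had 4 lower and 1 higher of 8 measured. SLIT2, a secreted repellent, had 0.911 CPM in the positive and 22.7 CPM in the negative group and stood 24.9-fold lower in the authors' deposited table (interval -5.63 to -3.65, edgeR FDR 1.21e-06). Of its receptors, ROBO2 was, in the authors' deposited table, 24.3-fold higher (interval 3.42 to 5.78, edgeR FDR 7.91e-06), from 0.249 CPM in the negative to 6.05 CPM in the positive group. ROBO1 had 11.8 and 9.06 CPM and was not called (interval -0.17 to 0.94, edgeR FDR 0.233 in the authors' deposited table). ROBO1 and ROBO2 are neighbours in the same region of chromosome 3, ROBO1 on the minus strand at 78597239 to 79767998 and ROBO2 on the plus strand at 75906695 to 77649964. ROBO3, known from axons that cross the midline, stood 2.84-fold lower in the authors' deposited table, at 8.79 and 24.9 CPM (edgeR FDR 8.30e-05).

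NTN4, a netrin of basement membranes, had the largest deposited change of all members. It fell from 11.9 CPM in the negative to 0.175 CPM in the positive group, 68.2-fold lower in the authors' deposited table (a log2 value of -6.09, edgeR FDR 4.57e-06); its interval of -7.57 to -4.62 is wide because few reads remained. NTN1, the classical netrin, was the member closest outside the threshold, with 8.20 and 4.83 CPM and a log2 value of 0.76 (interval -0.01 to 1.54, edgeR FDR 0.0936) in the authors' deposited table. Its receptor UNC5A was, in the authors' deposited table, 18.7-fold lower, at 1.16 and 21.7 CPM (interval -5.02 to -3.44, edgeR FDR 3.20e-07), while UNC5B stood at 4.02 and 3.90 CPM (interval -0.76 to 0.84, edgeR FDR 0.936).

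In all, 12 members were not called, with log2 values between -0.48 and 0.76 in the authors' deposited table. At the other extreme, 9 called members had an implied level under 1 CPM in 1 group, down to 0.110 CPM for SEMA3G. Genes that, by their degrees of freedom, had no reads in 1 group showed an implied level there of 0.0252 to 0.0560 CPM, and no member was among them. The size of those 9 folds is therefore less certain than their direction.

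Ligands and receptors known to bind each other were then set side by side, in 21 pairs listed after the values were seen, so that the counts only describe. Both genes were called in 15 pairs. In 10 of these they moved the same way, 8 pairs lower and 2 higher, and in 5 they moved apart. EFNB2 (log2 -4.35) was lower together with EPHB2 (-5.97), EPHB3 (-3.29) and EPHB4 (-1.19) in the authors' deposited table. The other measured ephrin-B, EFNB1, was lower by less (-0.63) and was not called with 4 denominator degrees of freedom. EPHB1, which is in none of the pairs, was not called (0.12). EFNA1 and EPHA2 were lower together, as were SEMA3A and SEMA3C with NRP1. SEMA7A (3.20) with PLXNC1 (5.20), and SEMA5A (3.19) with PLXNB3 (1.08, lost when centred on the spike-ins), were higher together in the authors' deposited table. Opposite signs stood in the pairs SEMA6A and PLXNA2 (5.71 and -5.26), SLIT2 and ROBO2 (-4.64 and 4.60), SEMA3C and NRP2 (-4.44 and 4.20), EFNA5 and EPHA5 (-2.07 and 4.48), and SEMA4C and PLXNB2 (1.04 and -0.85) in the authors' deposited table. Pairs share genes, so they are not independent of each other. The list of pairs is not complete, and another choice could change these counts. The called semaphorins in none of the pairs were SEMA3B (1.75) and SEMA3G (4.31), both higher, and SEMA3D (-5.38), SEMA6B (-5.97) and SEMA4B (-1.25), all lower.

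**Figure D4:**
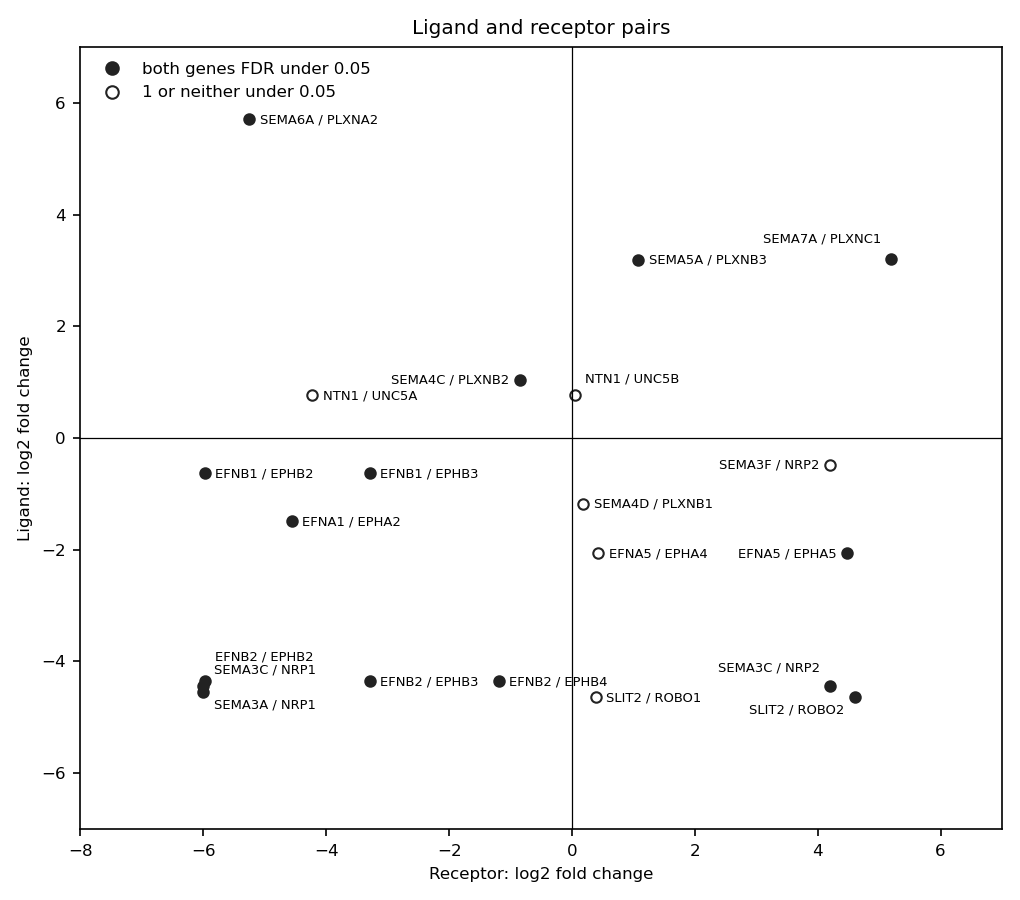
Log2 fold change of the ligand (vertical axis) against that of its receptor (horizontal axis) for 21 known pairs; filled points have both genes called. The lower left holds the ephrin-B pairs and those of NRP1, the upper right SEMA7A with PLXNC1 and SEMA5A with PLXNB3, and SEMA6A with PLXNA2 lies farthest out at the upper left, which also holds SEMA4C with PLXNB2 and NTN1 with UNC5A.

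In 7 lists of partners, effectors and related genes of these systems, 59 of 99 measured genes were called (50.9% of all genes). Of these, 28 were higher and 31 lower. Centred on the spike-ins, 20 of the 99 were higher and 60 lower. With that centring 63.6% of all genes were called, and 17.8% of those calls were higher. Centring lowers every value by the same amount, so the lists below gain lower calls as all genes do. The median log2 fold change of the 99 genes was -0.09 as deposited, beside -0.01 for all genes. Whether their share differs from that of the ligands and receptors was not tested.

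Effectors of plexins and semaphorins had 5 higher and 8 lower of 19 (5 and 12 centred on the spike-ins). MICAL1, an enzyme that takes actin filaments apart below plexins, was 16.5-fold and CRMP1, a mediator of SEMA3A signalling, 28.5-fold higher in the authors' deposited table (edgeR FDR at most 1.01e-08). DPYSL3, of the same protein family as CRMP1, was 10.4-fold and the small GTPase RND3 5.21-fold lower in the authors' deposited table (edgeR FDR at most 1.66e-08). Effectors of Eph receptors and ephrins had 9 higher and 7 lower of 28 (7 and 15 centred on the spike-ins). NGEF, the exchange factor that links EphA receptors to RHOA, was 82.0-fold and CHN1, a RAC inhibitor below EPHA4, 12.9-fold lower in the authors' deposited table (edgeR FDR at most 3.48e-08). ANKS1A, an adaptor of Eph receptors, was 8.74-fold and SDCBP, a PDZ protein that binds ephrin-B tails, 3.30-fold higher in the authors' deposited table (edgeR FDR at most 7.20e-08).

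The cytoskeletal list had 4 higher and 8 lower of 22 (2 and 16 centred on the spike-ins). NEDD9, a docking protein, was 28.1-fold and CDK5R1, the activator of CDK5, 16.0-fold higher, and RHOC 2.84-fold and LIMK1, a kinase of cofilin, 2.78-fold lower in the authors' deposited table (edgeR FDR at most 6.59e-06). The joint list of netrin, RGM and FLRT partners had 0 higher and 3 lower of 5 (0 and 5 centred). Those lower as deposited were NTNG2, FLRT3 and RGMB, none of them a netrin receptor. NTNG2 was 16.0-fold and FLRT3, an adhesion protein that binds UNC5 receptors, 4.86-fold lower in the authors' deposited table (edgeR FDR at most 0.000117), while the netrin receptor NEO1 had a log2 value of 0.04 (edgeR FDR 0.868). Effectors of SLIT and ROBO, listed together with SLITRK proteins, had 3 higher and 1 lower of 11 (1 and 5 centred). The lower one as deposited was SLITRK6 and not an effector. MYO9B, a myosin that acts below ROBO1, was 2.44-fold and SRGAP2 1.78-fold higher in the authors' deposited table (edgeR FDR at most 0.000650); SRGAP2 has near-identical copies, so its reads are uncertain, and it was not called centred on the spike-ins. SLITRK6 was lower in the authors' deposited table (edgeR FDR 0.000115) but, at 2.77 CPM on average, had no reads in 1 group, so no fold is given, and SLITRK5 had a log2 value of -1.03 (edgeR FDR 0.0855).

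The Nogo receptor list had 4 higher and 2 lower of 7 (3 and 3 centred on the spike-ins). LINGO1 and TNFRSF19, both co-receptors of the Nogo receptor, were 23.0-fold and 29.1-fold higher, and RTN4RL1 4.92-fold and RTN4, which encodes Nogo itself, 1.62-fold lower in the authors' deposited table (edgeR FDR at most 0.000236). L1 and contactin adhesion molecules, some of which act as co-receptors for semaphorins, had 3 higher and 2 lower of 7 (2 and 4 centred). NRCAM was 133-fold and CHL1, which can bind NRP1, 107-fold higher in the authors' deposited table (edgeR FDR at most 5.79e-08). ALCAM was 6.78-fold and CNTNAP1 2.09-fold lower in the authors' deposited table (edgeR FDR at most 0.00152).

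**Figure D5:**
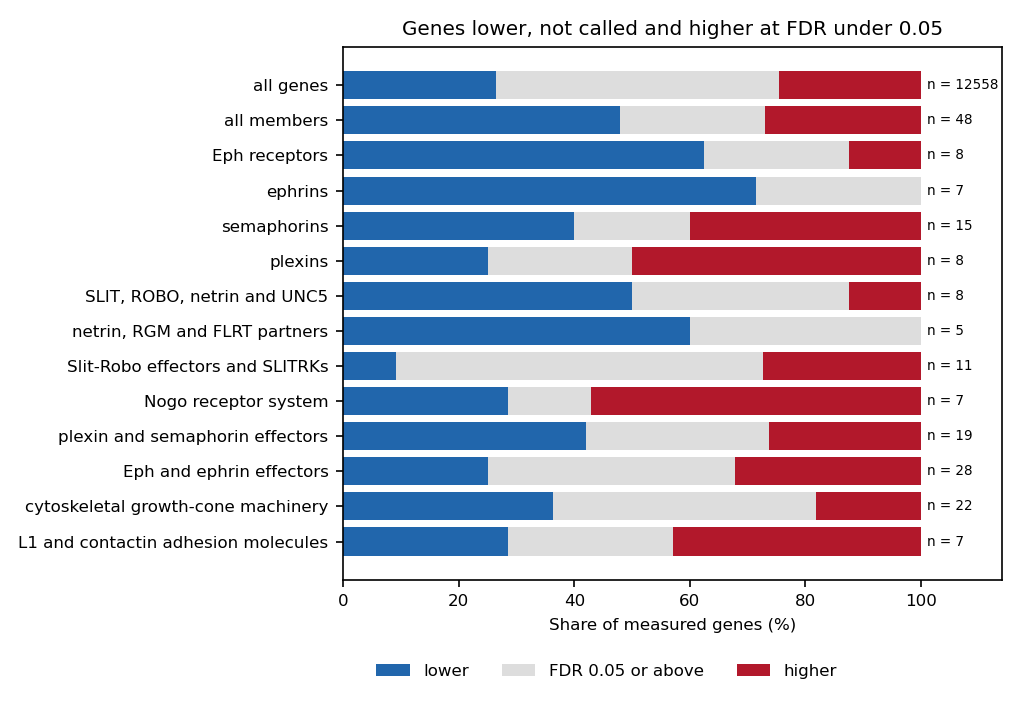
Share of measured genes (horizontal axis, %) lower, not called and higher at an FDR under 0.05. Bars show all genes, the guidance ligands and receptors together, Eph receptors, ephrins, semaphorins, plexins, and the 7 partner lists. SLIT, ROBO, netrin and UNC5 genes share a bar, and neuropilins have none of their own. The number of measured genes is given as n. Ephrins have no higher member, plexins have 4 higher and 2 lower as deposited, and all genes split about evenly.

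Reads at the 3' end can be shared where genes overlap. The last 1 kb of 9 members (EPHB1, UNC5A, EFNA4, EFNA3, NTN4, PLXNA3, PLXNB3, PLXNC1 and SEMA5A) overlaps another annotated gene, and how the counting used strand is not given in the sources used here. For PLXNC1 that neighbour is CEP83 (log2 0.38, edgeR FDR 0.525) and for PLXNA3 it is LAGE3 (log2 0.08, edgeR FDR 0.648) in the authors' deposited table. With those 9 left out of the 48 members, 29 of the rest were called. All of the 9 except EPHB1 and EFNA3 were called themselves, so the count falls by their removal alone. The same overlap was not looked up for all genes.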

How the data were processed

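RNA of 6 libraries in 2 labelled groups of 3 was compared by the authors in 1 table. Per the submitters' processing notes, STAR, edgeR and build hg38 were used. Not given in the sources used here are the versions, counting tool, strand setting, annotation and filter. The authors' columns, per the file headers, hold a log2 fold change with its linear ratio, the average log2 CPM, the F score, and the p-value with its FDR. Depth per library is unknown, so no interval or floor that needs it is given. The labels do not tell whether a group's samples were separate cultures; p-values thus cover the spread among these samples alone, which may be technical.

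The FDR was taken as deposited over 12617 rows, of which 59 are spike-ins; 19 symbols had become dates and stay unnamed. Solved from F and p, the denominator degrees of freedom were 14.03 in 12052 rows and 2 fewer in 206, rows read here as genes with no reads in 1 group. They were not solved in 356 rows with a p-value above 0.9 or no solution, where 14.03 was used. The size of the log2 fold change divided by the square root of F gave the standard error behind the intervals; the deposited fold changes of low genes are shrunk, so these are approximate. Group levels assume that the average CPM is the mean of both groups. The design foresaw a new fit if counts were given; the table has none.

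The members and lists were chosen with earlier results of these data known. Members called, and the most abundant of each family, are given in full, the rest by range and count, and of each list the 2 genes with the smallest p on each side. Positions are from GENCODE 44 (hg38), matched by symbol for all 48 members; start regions are from RefSeq (GRCh38.p14), matched for 42. Python 3.11.15, numpy 2.4.6, pandas 2.3.3, scipy 1.17.1 and matplotlib 3.10.9 were used. The recomputed tests were run on data simulated with the spread that the deposited F implies. That checks the calculation only and cannot show that the alternatives suit these data. Alternatives were an FDR under 0.01, a 2-fold minimum, an average log2 CPM of at least 1, centring on the spike-ins and 4 denominator degrees of freedom. The last kept the deposited F.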

Additional observations from a re-analysis of the deposited data

How the results depend on the processing

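No paired analysis was possible because the table holds no values per library; for the same reason leaving out a replicate, and another count test or normalization, were not run. The count of called members was 36 as deposited (50.9% of all genes). It was 32 at an FDR under 0.01 (38.1% of all genes) and 32 with at least a 2-fold change (28.9%). With an average log2 CPM of at least 1 it was 34 (51.3% of genes at that level). Centred on the spike-ins it was 36 (63.6% of all genes). With 4 denominator degrees of freedom, the number that 6 libraries in 2 groups leave, it was 31 (33.0% of all genes). Alternatives were also added after seeing the data. Leaving out the 9 of 48 members that overlap another gene at the 3' end gave 29. With 4 degrees of freedom and at least a 2-fold change together there were 29 (24.1% of all genes). The median log2 fold change of the members was -0.38 as deposited and -0.95 centred on the spike-ins; the shift is the spike-in median itself.

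Single members that were lost with 4 degrees of freedom were EFNA4, EFNB1, PLXNA3, PLXNB3 and SEMA4D. Centring lost PLXNA1, PLXNA3 and PLXNB3 and added EFNA2, PLXND1 and SEMA3F. It turned the sign of 8 members, none of them called in either case: EFNA3 (-0.017), EPHA4 (-0.14), EPHB1 (-0.45), PLXNB1 (-0.39), ROBO1 (-0.18), SEMA4F (-0.21), SEMA6C (-0.16) and UNC5B (-0.53).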
